A study of Mus musculus with 4 samples.

Results

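Genes whose transcripts are typical of the testis were followed in mouse embryonic stem cells (ESCs) that lack Dppa2, a nuclear protein of pluripotent cells also called ECAT15-2. The set comprised 10 genes: Taf7l, Tex11, Tex14, Tex15, Tex101 and Stk31, and the germline paralogues Rpl10l, Slc25a31, Tuba3a and Tuba3b. Members were found through the accession that the array gives for each probe, and 8 of the 10 had at least 1 probe, 11 probes in all, among 21639 genes and transcripts tested over the whole array. Rpl10l and Tuba3b had no probe with a matching accession and were not analysed here.

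A total of 4 ESC lines were measured, 2 wild type (WT) and 2 deficient (KO), with 1 one-colour Agilent array per line. WT lines were 15-1+/+ and 15-2+/+. KO lines were 15-2-/- and carried the conditional targeted allele of ECAT15-1 (Dppa4) on both copies (15-1CT/CT), so the genotypes differed at both genes. All lines came from day 3.5 blastocysts of 15-1+/CT, 15-2+/- intercrosses and were kept for 3 days on gelatin with LIF and 15% FCS. WT 1 and KO 1 shared mother 1046, and WT 2 and KO 2 shared mother 875. Their background was a mixture of 129Sv, C57/BL6 and a Cre or FLPe strain of unknown background, and each line is a single derivation, so the p-values measure the spread between 2 lines per genotype.

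Germ cells use many variants of housekeeping genes. Some replace an X-linked parent that is silenced during male meiosis, as Rpl10l does for Rpl10 and Slc25a31 for Slc25a5. Others serve structures found only in germ cells, such as the bridges between dividing spermatocytes. In ESCs and somatic cells, promoters of many germline genes are held silent by DNA methylation or by a variant Polycomb complex, PRC1.6, that reads E-box and E2F-type DNA motifs.

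Of 41174 gene probes, each array had between 68.4% and 70.3% well above background and 0 saturated. Dppa2, the targeted gene, had log2 signals of 12.07 in WT and 7.07 in KO lines as means of 2 (log2 change -5.00 ± 0.12 SE, limma adjusted p = 0.00853). Its probe was still well above background on both KO arrays. Of the ESC markers listed, 8 had a probe, and all 8 were well above background on all 4 arrays. All 10 fibroblast markers and all 12 endoderm and trophoblast markers were also well above background on both WT arrays. Signal above background therefore does not identify the cells. Transcripts of 4 Y-linked genes were well above background in WT 1 alone, so the WT lines differed from each other in this respect.

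The promoter sequences of the members that fell and have a RefSeq entry, Taf7l, Stk31 and Slc25a31, are shown together with that of Tex101, which did not pass the test and has neither motif. Tex14 and Tuba3a did not pass either, hold E2F-type letters and are not printed. A link between motifs and differences was not tested. Each stretch holds the 250 bases before the RefSeq transcription start in build GRCm38.p6, read 5′ to 3′ on the gene's own strand, and capitals mark the E-box CACGTG.

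Taf7l (chrX:134476491-134476740, minus strand): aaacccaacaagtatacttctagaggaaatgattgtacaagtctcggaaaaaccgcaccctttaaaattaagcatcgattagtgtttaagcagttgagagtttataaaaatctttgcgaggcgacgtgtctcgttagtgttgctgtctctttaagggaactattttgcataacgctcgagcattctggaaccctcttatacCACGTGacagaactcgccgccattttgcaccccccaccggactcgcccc
Stk31 (chr6:49395289-49395538, plus strand): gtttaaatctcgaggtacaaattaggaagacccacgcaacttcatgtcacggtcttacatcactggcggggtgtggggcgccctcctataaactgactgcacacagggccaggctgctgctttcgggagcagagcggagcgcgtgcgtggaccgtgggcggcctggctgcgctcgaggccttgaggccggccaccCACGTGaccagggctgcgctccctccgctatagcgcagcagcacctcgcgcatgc
Slc25a31 (chr3:40708621-40708870, plus strand): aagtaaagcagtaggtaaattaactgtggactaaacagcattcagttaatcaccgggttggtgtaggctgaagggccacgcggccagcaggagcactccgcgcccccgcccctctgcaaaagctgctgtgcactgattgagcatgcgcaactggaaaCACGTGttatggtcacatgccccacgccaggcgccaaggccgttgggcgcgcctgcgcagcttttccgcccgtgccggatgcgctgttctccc
Tex101 (chr7:24672051-24672300, minus strand): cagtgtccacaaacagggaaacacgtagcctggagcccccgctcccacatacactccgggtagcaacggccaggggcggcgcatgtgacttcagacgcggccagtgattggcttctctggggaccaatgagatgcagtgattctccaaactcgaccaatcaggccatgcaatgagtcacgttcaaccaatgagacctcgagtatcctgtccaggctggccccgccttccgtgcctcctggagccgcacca

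Entries were present for 8 of the 10 members, and there were 2 for Stk31, with starts 65 bases apart. The windows searched ran from 250 bases before to 50 after the start, on both strands. CACGTG, which reads the same on both strands, was found in 3 members, and these were Taf7l, Stk31 and Slc25a31. Its first base lay 49 bases before the start of Taf7l, 55 before the upstream start of Stk31 (120 before the other) and 93 before that of Slc25a31. Of all 32851 promoter windows in the table, 7.15% held these letters.

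The E2F-type letters TCCCGC, or GCGGGA on the other strand, were in 5 members. They began 111 bases before the start of Tex14, 119 before that of Tuba3a, 106 before that of Tuba3b and 43 before that of Rpl10l, and 21 bases after that of Slc25a31, past the printed stretch. Of all windows, 19.98% held them, and 11.34% held the longer form GGCGGGA or TCCCGCC, which contains them and occurred in 4 members (the same as above without Rpl10l). Slc25a31 held both kinds of letters, as did 1.99% of all windows. Tex11 and Tex15 have no entry in the table. The first or only windows of the 8 members were between 47.0% and 65.3% G or C and held 12 to 29 CG pairs, against medians of 52.7% and 7.0 over all windows. CACGTG and TCCCGC each contain a CG pair, so the shares over all windows are not those of windows equally rich in CG.

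**Figure D1:**
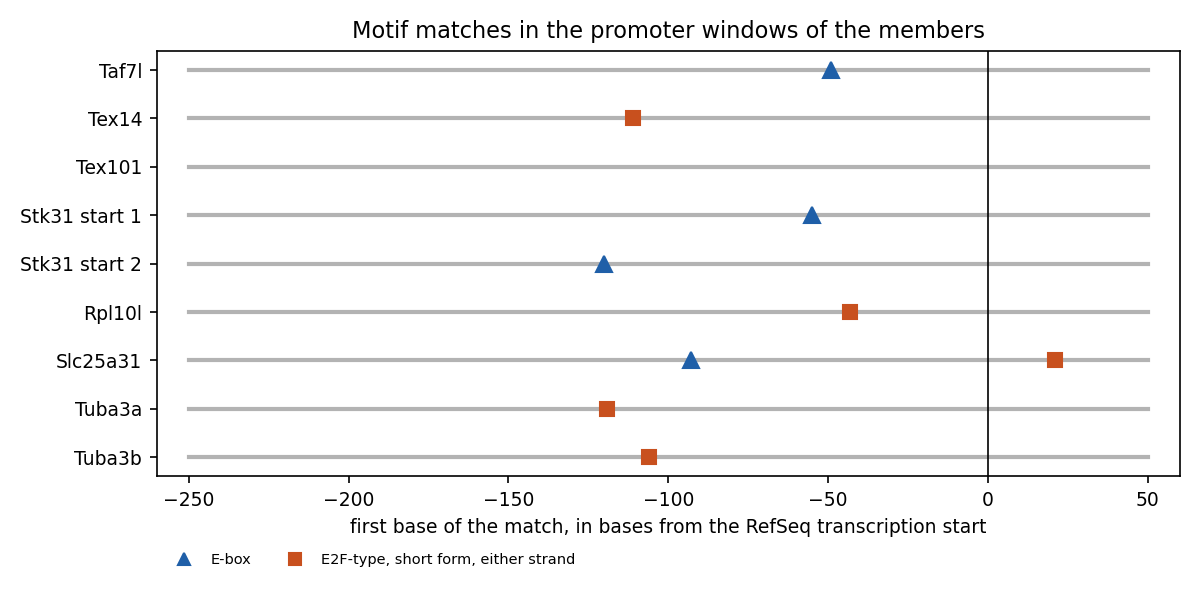
Matches to the E-box (triangles) and the short E2F-type letters (squares) in the promoter windows of 8 members, with 2 starts for Stk31, plotted in bases from the RefSeq transcription start. Taf7l, Stk31 and Slc25a31 hold an E-box. Slc25a31, Tex14, Tuba3a, Tuba3b and Rpl10l hold the E2F-type letters, and Tex101 holds neither.

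The question put to the arrays was whether these transcripts differ between KO and WT lines. Of the 8 genes measured, 4 fell in the KO lines, 0 rose and 4 did not pass the test: Taf7l, Tex11, Stk31 and Slc25a31 fell. At an unadjusted p under 0.05, 6 were lower and 1 higher (limma), as were 12.8% and 10.2% of all genes and transcripts tested. Over all 21639 genes and transcripts tested, 1.70% were called lower and 0.171% higher (limma adjusted p under 0.05). All 8 genes passed the filter on dim probes, but the 4 that fell passed it through the WT arrays alone, so a difference was a condition of their being tested. WT and KO values did not overlap for any of the 8, with KO lower for 6 and higher for 2, in a comparison where 25.7% of all tested genes were lower and 35.5% higher without overlap. The median log2 difference was -2.04 over the 8 and 0.07 over all tested genes. It rests in part on KO readings at background, and under normexp with the 75th percentile the medians were -0.62 and 0.09. Normexp as run here also adds 50 to every signal, which by itself shrinks the log2 differences of dim probes. The members were chosen with earlier results of these data known, so these medians are a description only. In bulk RNA such as this, fewer cells of a type and less RNA per cell cannot be told apart.

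**Figure D2:**
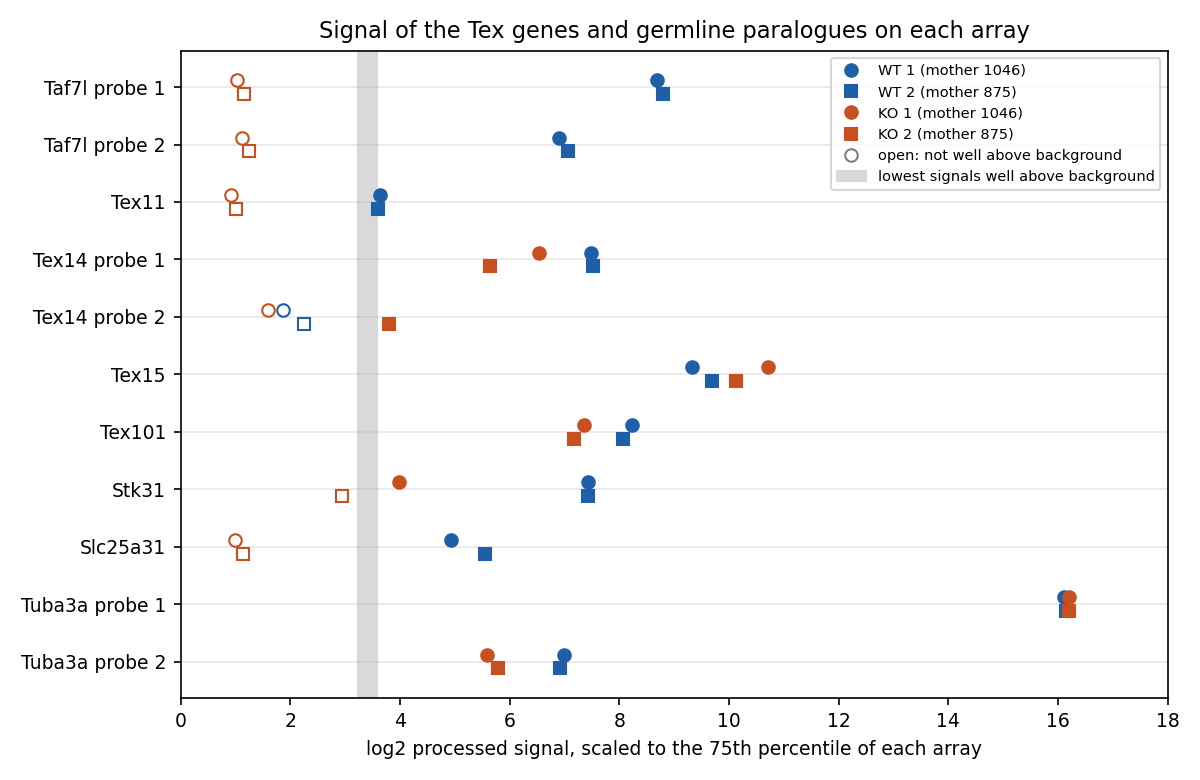
Log2 processed signal of each of the 11 probes on the 4 arrays, WT in blue and KO in orange, with circles for mother 1046 and squares for mother 875. Open symbols were not well above background, and the grey band spans the lowest signals called well above background (3.24 to 3.59). Both probes of Taf7l, the probe of Tex11 and that of Slc25a31 are open in both KO lines.

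Taf7l encodes a germ cell paralogue of TAF7, a subunit of the general transcription factor TFIID, and lies on the X chromosome. Its brighter probe gave log2 signals of 8.69 in WT 1 and 8.79 in WT 2, against 1.03 in KO 1 and 1.17 in KO 2. The WT lines were close to each other, and neither KO array was well above background. In processed signal Taf7l thus fell at least 44.2-fold (measured log2 change -7.64 ± 0.13 SE, n = 2 lines each, limma adjusted p = 0.00724). Such a bound sets the WT mean against the KO mean after raising each KO value to the lowest signal called well above background on its array. That lowest signal is not a strict limit, since some readings not called well above background lie above it, as Tuba8 in KO 2 does. The size also depended on the background correction and on the 50 added to every signal with it, and their parts were not told apart. Under normexp with the 75th percentile the log2 difference of Taf7l was -2.88, smaller than the bound, and still passed (limma adjusted p = 0.0107).

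The second probe of Taf7l read 6.90 and 7.07 in the WT lines and 1.11 and 1.26 in the KO lines. It too was dark in both KO lines, and its fall was at least 13.1-fold (measured log2 change -5.80 ± 0.14 SE, n = 2 lines each, limma adjusted p = 0.00761 with each probe fitted on its own). When each probe was fitted on its own, 5 of the 10 kept member probes were called lower, against 1.71% of 28688 probes. These 5 include both probes of Taf7l, and all passed the filter on dim probes through the WT arrays alone. A difference was thus a condition of their being tested, and the members were chosen with earlier results known, so the shares are a description only.

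Slc25a31 encodes a testis ADP/ATP carrier of the inner mitochondrial membrane that male meiosis depends on. Its log2 signals were 4.93 in WT 1 and 5.55 in WT 2, and 1.00 in KO 1 and 1.13 in KO 2. Both WT arrays were above background and both KO arrays were not, which gives a fall of at least 3.91-fold (measured log2 change -4.18 ± 0.26 SE, n = 2 lines each, limma adjusted p = 0.0254). Under normexp with the 75th percentile the log2 difference was -0.64, which did not pass. With 50 added to every signal, a gene this dim is bound to show a small difference there.

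Stk31 encodes a germ cell protein with a Tudor domain and a kinase-like domain. Its log2 signals were 7.43 in both WT lines, 3.98 in KO 1 and 2.94 in KO 2. KO 1 remained above background and KO 2 did not. With KO 2 raised to the lowest signal called well above background there, and 1 of 2 KO arrays measured, the fall was at least 13.8-fold (measured log2 change -3.97 ± 0.40 SE, n = 2 lines each, limma adjusted p = 0.0480), the closest of the 4 to the threshold. Under normexp with the 75th percentile the log2 change was -1.42 and still passed, and with no filter on dim probes the adjusted p was 0.0606 (limma).

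Tex11 is an X-linked gene whose protein acts in crossover formation and chromosome synapsis during meiosis. It was dim throughout, at 3.64 and 3.60 in the WT lines and 0.92 and 1.01 in the KO lines. The WT values lay just above the lowest signals called well above background, so its fall is bounded at only 1.27-fold or more, although the measured log2 change was -2.66 ± 0.12 (SE, n = 2 lines each, limma adjusted p = 0.0176). Under normexp with the 75th percentile the log2 difference was -0.10 and did not pass. At so dim a signal the 50 added there leaves little room for a difference.

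The 4 falls share limits. With the mother as a replicate block, none passed: limma adjusted p was 0.0852 for Taf7l, 0.0871 for Slc25a31 and Tex11, and 0.105 for Stk31, at the same log2 differences. No gene of the array passed in that fit either (limma: 0 lower and 0 higher, 2788 and 2090 at an unadjusted p under 0.05), and the 6 members at an unadjusted p under 0.05 were all lower. The 4 calls also depended on which line was left out, as did the calls over the whole array, and each such fit leaves 1 line in a group. The log2 differences then ran from -7.709 to -7.576 for Taf7l and from -4.487 to -3.865 for Slc25a31. They ran from -4.489 to -3.451 for Stk31 and from -2.707 to -2.617 for Tex11. Over the alternatives tried, limma adjusted p ranged from 0.00543 to 0.140 for Taf7l, 0.0217 to 0.140 for Slc25a31, 0.0270 to 0.235 for Stk31 and 0.0141 to 0.568 for Tex11. For Taf7l, Slc25a31 and Tex11 the KO spread is that of background signal (SDs of 0.09, 0.09 and 0.06) and says nothing of how much transcript levels vary among such lines.

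For all 10 kept probes the difference had the same sign in both mothers' pairs. This follows from WT and KO values not overlapping for any of these probes and adds nothing to that count. Of all tested genes, 25.7% were lower and 35.5% higher in the KO lines without overlap. Taf7l differed by -7.66 in the pair of mother 1046 and by -7.63 in that of mother 875. Slc25a31 differed by -3.93 and -4.42, Stk31 by -3.45 and -4.49, and Tex11 by -2.73 and -2.60. In measured signal, at or below background included, these 4 genes were 2-fold or more lower in both pairs, as were 7.09% of all tested genes. For Tex11 that count rests on KO readings at background, and the bound on its fall is only 1.27-fold.

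**Figure D3:**
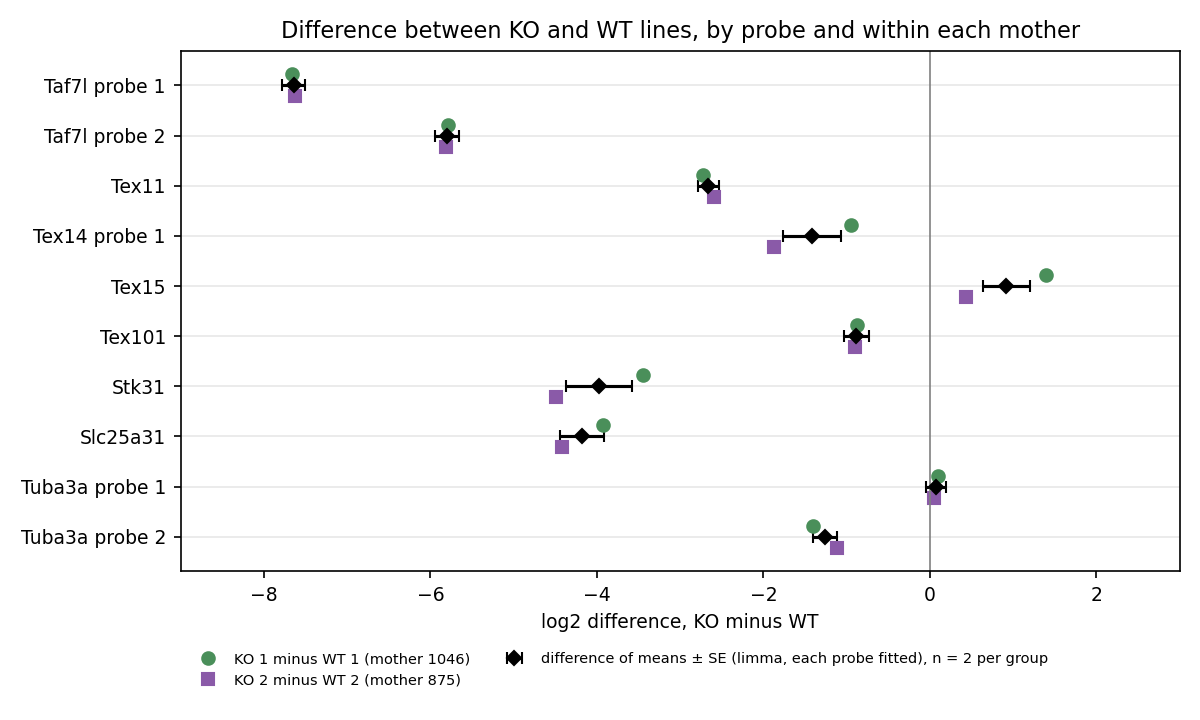
Log2 difference between KO and WT lines for the 10 kept probes: diamonds with bars are the difference of means ± SE (limma, n = 2 per group), circles the pair of mother 1046 and squares the pair of mother 875. Both probes of Taf7l lie at -5.80 or lower, and the 2 probes of Tuba3a lie apart, at 0.07 and -1.26.

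Taf7l and Tex11 are X-linked, and WT 1 differed from WT 2 in its Y-linked transcripts. Taf7l read 8.69 in WT 1 and 8.79 in WT 2, and Tex11 read 3.64 and 3.60. Of 495 tested X-linked genes 18 were called lower, with a median log2 difference of -0.07. The part of the Y-linked difference in these results was not tested.

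Of the Tex genes that did not pass, Tex14 (chromosome 11) encodes a component of the intercellular bridges between germ cells. Its brighter probe read 7.49 and 7.52 in the WT lines, 6.53 in KO 1 and 5.65 in KO 2. All 4 arrays were above background and the KO lines differed from each other more than the WT lines did. The log2 difference was -1.42 ± 0.35 (SE, n = 2 lines each, limma adjusted p = 0.147), and without KO replicate 1 it was -1.86 and passed (limma adjusted p = 0.0457, within a range of 0.0457 to 0.441 over the alternatives). The second probe of Tex14 read 1.86 and 2.25 in the WT lines, 1.59 in KO 1 and 3.80 in KO 2, and was well above background in KO 2 alone. It did not pass the filter on dim probes and was not tested, and it is the 1 member probe of 11 that was left out in this way.

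Tex101 encodes a glycoprotein of the germ cell surface needed for sperm fertility. It read 8.23 and 8.07 in the WT lines and 7.36 and 7.17 in the KO lines. Both pairs gave nearly the same difference, -0.87 and -0.90, yet the mean difference of -0.88 ± 0.15 (SE, n = 2 lines each) did not pass (limma adjusted p = 0.0945). The 95% interval, not adjusted for the number of genes, ran from -1.31 to -0.46.

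Tex15 encodes a protein that links piRNAs to DNA methylation of transposons in male germ cells. It was the Tex gene with higher signal in the KO lines, at 9.32 and 9.68 in the WT lines, 10.71 in KO 1 and 10.12 in KO 2. The groups did not overlap, but KO 1 lay further from its WT partner (1.39) than KO 2 did (0.44). The log2 difference of 0.92 ± 0.28 (SE, n = 2 lines each) did not pass (limma adjusted p = 0.190, 0.116 to 0.506 over the alternatives). Tex15 lies on chromosome 8, where the median of 750 tested genes was -0.02.

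Tuba3a (chromosome 6) encodes an alpha-tubulin known from the testis, and its 2 probes disagreed. The brighter probe read 16.11 and 16.15 in the WT lines and 16.21 and 16.19 in the KO lines, a log2 difference of 0.07 ± 0.12 (SE, n = 2 lines each, limma adjusted p = 0.730). The dimmer probe read 6.997 and 6.91 in the WT lines and 5.60 and 5.80 in the KO lines. Its log2 difference was -1.26 ± 0.14 (SE, n = 2 lines each, limma adjusted p = 0.0552 with each probe fitted on its own), just short of the threshold. Alpha-tubulin genes are close to identical in their coding parts, and the transcripts each probe binds were not checked here, so the values of Tuba3a are uncertain. The sign of the brighter probe's difference also turned with the scaling, to -0.07 under quantile scaling.

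The parent genes and close relatives of the germline paralogues were read from the same fit. Of 8 somatic paralogues tested, 1 fell, 0 rose and 7 did not pass, with a median log2 difference of 0.04. The gene that fell was Tuba8, a further alpha-tubulin gene, with KO 1 above background and KO 2 not. Its fall as measured was 8.62-fold (log2 change -3.11 ± 0.24 SE, n = 2 lines each, limma adjusted p = 0.0329). KO 2 read 3.425, already above the lowest signal called well above background on that array (3.312), so no bound was set. Taf7, the somatic paralogue of Taf7l, had a log2 difference of 0.46 with a 95% interval of -0.28 to 1.20. Rpl10, the parent of Rpl10l, had 0.20 (-0.26 to 0.65). The ADP/ATP carrier genes Slc25a5 and Slc25a4 had 0.17 (-0.19 to 0.53) and -0.19 (-0.82 to 0.44). The tubulin genes Tuba1a, Tuba1c and Tuba4a had -0.10 (-0.55 to 0.35), -0.04 (-0.39 to 0.30) and 0.11 (-0.23 to 0.46). None of these 7 intervals reaches the measured fall of Taf7l or Slc25a31 in the same fit. That of Slc25a31 rests on KO readings at background, and under normexp with the 75th percentile its log2 difference was -0.64.

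The name Tex covers genes of unrelated function, some of them broadly expressed. Of 37 listed, 27 had a probe and 11 of these were not well above background on any array. Among the 13 tested, 0 fell and 0 rose by limma (1 and 0 at an unadjusted p under 0.05), and the median log2 difference was 0.10. The smallest p was that of Tex16, an X-linked gene, with a log2 difference of -1.999 ± 0.36 (SE, n = 2 lines each, limma adjusted p = 0.0993) and no KO array above background. Tex38 had -0.68, Tex10, a broadly expressed nuclear protein gene, had 0.24, and Tex264, which encodes a receptor for autophagy of the endoplasmic reticulum, had 0.41.

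Of 15 tested genes of TFIID and of TBP-like factors, the complex that TAF7L can join, 0 fell and 0 rose by limma (1 and 2 at an unadjusted p under 0.05), with a median of 0.12. Those with the smallest p were Taf9b (-0.64), Taf13 (0.56), Taf4 (0.39) and Tbpl1 (-0.74), with limma adjusted p between 0.154 and 0.258. Of 10 tested partner genes of the members, 1 fell and 9 did not pass. Piwil2, a PIWI protein of the piRNA pathway, fell 2.85-fold (log2 change -1.51 ± 0.13 SE, n = 2 lines each, limma adjusted p = 0.0393). Tdrd1, a Tudor protein of the same pathway, had a log2 difference of -5.30 that did not pass (limma adjusted p = 0.0950). The bridge component gene Cep55 had 0.72 and Hsf2 had 0.40.

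**Figure D4:**
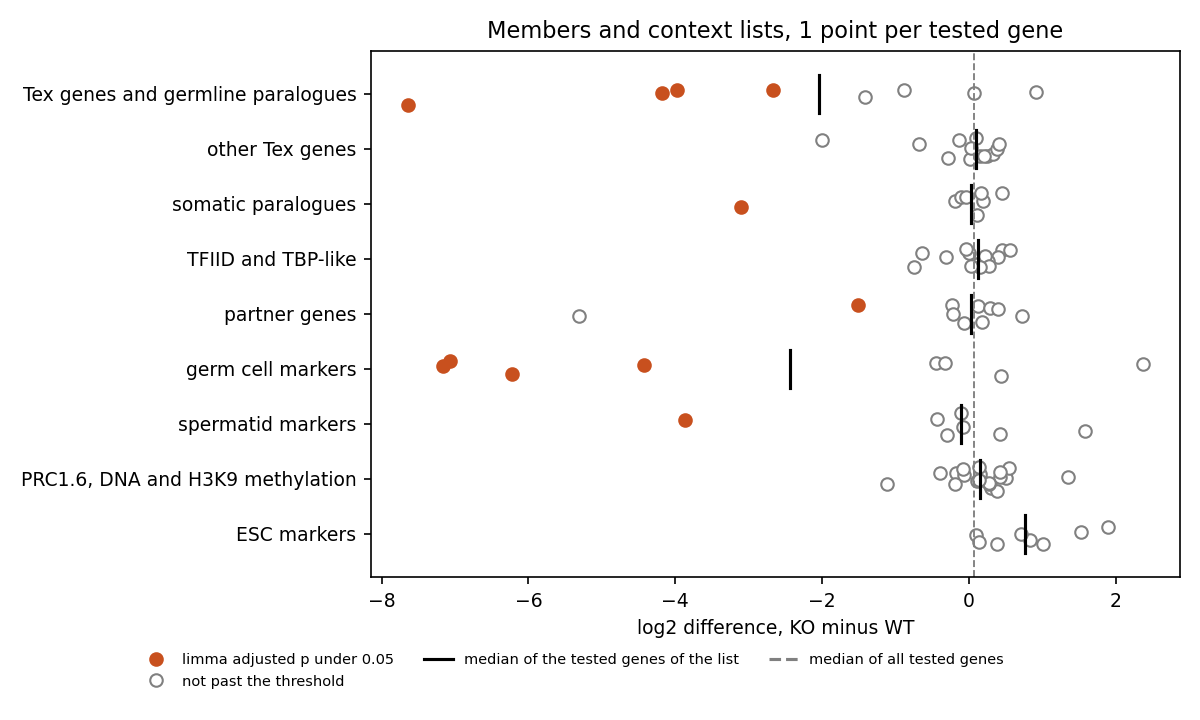
Log2 difference between KO and WT lines, 1 point per tested gene, for the members and 8 context lists, with filled points for limma adjusted p under 0.05. Black bars are list medians and the dashed line the median of all tested genes (0.07). The members' median is -2.04 and that of the other Tex genes 0.10.

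Of 8 tested germ cell markers, 4 fell and 4 did not pass. Those that fell were Dazl at least 16.0-fold, Sycp1 at least 6.71-fold, Mael at least 126-fold and Ddx4 143-fold (limma adjusted p between 0.00853 and 0.0329). Dazl and Sycp1 were not well above background in either KO line, and Mael was not in KO 2. The other 4, named after their values were seen, had log2 differences of 2.37 (Stra8), 0.43 (Tfap2c), -0.45 (Nanos3) and -0.33 (Prdm1). The summed signal of the list was 14600 to 16700 in WT and 15030 to 22200 in KO lines. Stra8 and Tfap2c, the 2 tested markers that were higher in the KO lines, held 60.7% to 63% of it in WT and 96.4% to 97.2% in KO lines. Of 7 tested spermatid markers, 1 fell, the acrosome gene Spaca1 (at least 3.31-fold), while Tnp2, Ldhc and Prm2 had log2 differences of 0.42, 1.58 and -0.43 that did not pass. Among 7 tested Sertoli and Leydig cell genes none passed in limma, nor at an unadjusted p under 0.05, with differences of 0.61 for Wt1, 0.41 for Hsd3b1, 0.43 for Dmrt1 and 0.10 for Cyp17a1.

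Genes of the machinery known to silence germline promoters gave signal in both genotypes. All 20 genes with a probe for PRC1.6, H3K9 methylation and DNA methylation were above background on every array, and of 20 tested 0 fell and 0 rose by limma (1 and 3 at an unadjusted p under 0.05), with a median of 0.16. The smallest p were those of Dnmt3l (1.35), Yaf2 (-1.12), Rybp (0.55) and L3mbtl2 (0.51), with limma adjusted p between 0.0788 and 0.164.

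Markers of other cell types had differences of both signs. Of 12 tested endoderm and trophoblast markers, 2 fell, Dab2 3.42-fold and Hand1 27.3-fold, 0 rose, and Krt8 and Krt18 had differences of -2.77 and -2.18 that did not pass. In all 8 were lower and 4 higher, and at an unadjusted p under 0.05 the counts were 6 and 1 (limma). The 4 higher genes, named after their values were seen, were the endoderm transcription factor genes Sox7 (1.42), Sox17 (1.39), Gata6 (1.17) and Gata4 (0.51), and none passed. The summed signal of the list was 282300 to 372600 in WT and 49870 to 73880 in KO lines, of which Krt8 and Krt18 held 97.0% to 99.2%. Of 10 tested fibroblast markers, 2 fell, Mmp2 10.99-fold and Fbn1 7.18-fold, with Lum at -2.18 and Col1a1 at -1.58 not passing, and the summed signal was 6179 to 15850 in WT and 5517 to 6177 in KO lines, WT 1 alone standing above the rest. Of 8 tested ESC markers 0 passed in limma (at an unadjusted p under 0.05, 4 were higher and 0 lower), with a median of 0.77 and summed signals of 84050 to 94130 in WT and 146300 to 221100 in KO lines. The largest values among those with the smallest p were 1.90 for Klf4 and 1.53 for Esrrb, with 0.83 for Sox2 and 0.71 for Utf1. The part of these shifts in the members' differences was not tested. Over all context lists, with Dppa2 counted among them, 12 genes were called lower and 0 higher, and 0 and 0 with the mother as a block (limma).

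The genes whose pattern over the 4 arrays was most like that of Taf7l were found among 14372 others by Euclidean distance between log2 signals. They were Tescl (distance 0.29), Kcne1l (0.45), Fam162b (0.62), Afm (1.27) and Cdcp1 (1.51). All 5 were above background in both WT lines and in neither KO line, and with 4 arrays such likeness is a description of level and genotype only.

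**Figure D5:**
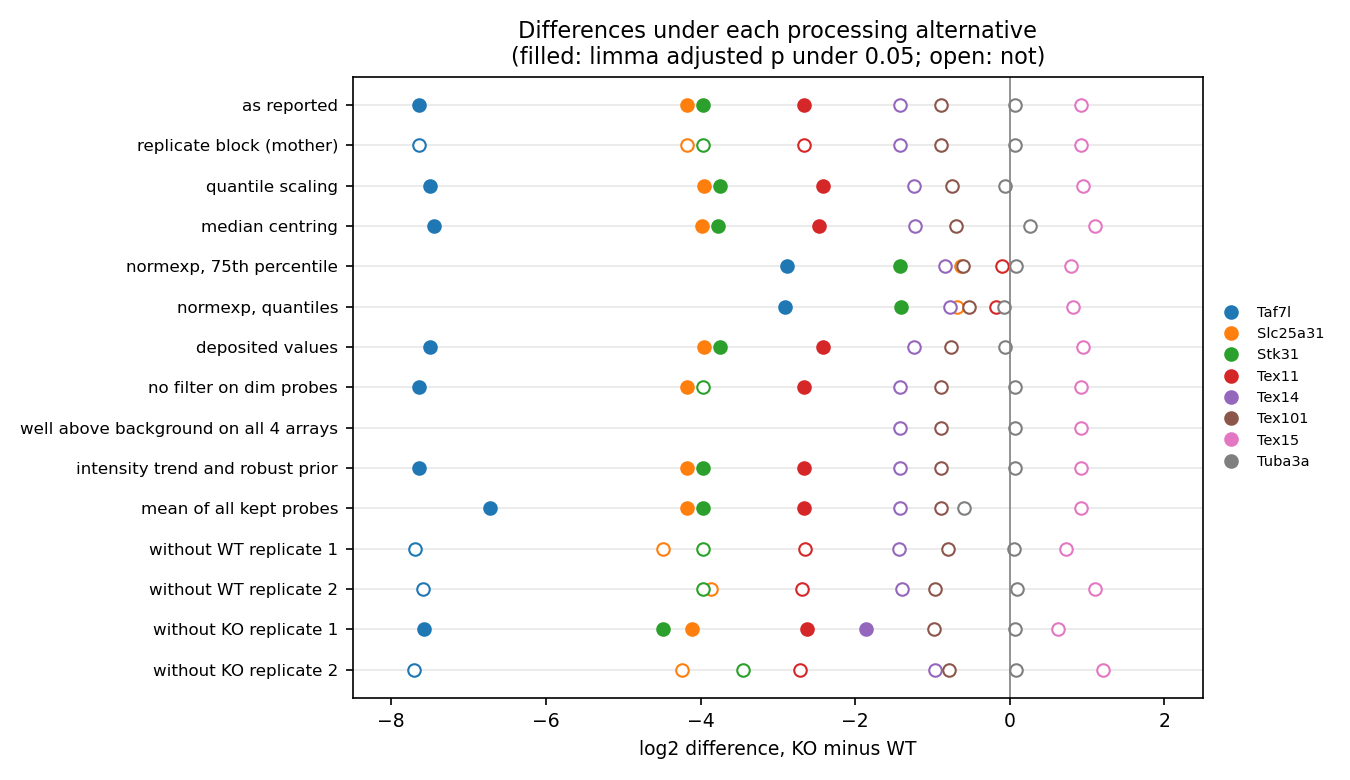
Log2 difference between KO and WT lines for the 8 measured genes under the reported processing and 14 alternatives, filled where limma adjusted p was under 0.05. Under normexp with the 75th percentile and its offset of 50, Taf7l moves from -7.64 to -2.88 and Tex11 from -2.66 to -0.10.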

How the data were processed

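RNA of 4 ESC lines was hybridised to Agilent whole mouse genome arrays in the one-colour format. Spot intensities were extracted, per the file headers, with Feature Extraction 10.7.3.1 of Agilent, and the deposited processed intensity is background-subtracted within each array and not scaled between arrays. Flags for saturation, outliers and signal well above background come from the same deposited files. The series table as deposited holds log2 values with a median of 6.55 in every column, each correlated with its array's log2 processed signal at 0.9999 or above. GeneSpring GX11 is named per the labels, and its settings are not given in the sources used here.

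The processed signal was put on the log2 scale and shifted by each array's 75th percentile, re-centred on the mean percentile. Flagged spots were left out, spots of a probe averaged, and probes kept that were well above background on both arrays of a group. The brightest kept probe stood for a gene. Of 41174 probes, 26690 matched 1 symbol of the RefSeq table of GRCm38.p6 and 14484 none. The array annotation is on mm9, so gene coordinates are not given and promoter coordinates are those of the RefSeq table. All 4 arrays were scanned together, per the file headers.

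KO was set against WT in R 4.3.3 with limma 3.58.1 (lmFit, eBayes, Benjamini-Hochberg at 0.05 over 21639 genes and transcripts), with genotype as the one term. The labels tie equal replicate numbers to a shared mother, and a fit with the mother as block was run beside it. Across genes, the deviation of lines of one mother in WT and in KO had a correlation of 0.19. Alternatives covered scaling, background correction (normexp, offset 50), filter, variance model, probe choice, the deposited values and each line left out. Protein sequences were not used here, so the planned comparison of paralogue proteins was not run. Members and lists were chosen with earlier results of these data known. Named genes are all members, up to 4 tested genes of each list with the smallest p (all of the somatic paralogues, the targeted locus and the sex-linked genes), and the 5 genes nearest to Taf7l. Dppa4 differed by 0.53 (limma adjusted p = 0.162) and Xist by 0.71 (limma adjusted p = 0.564).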

Additional observations from a re-analysis of the deposited data

Results flagged for a closer look

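The second probe of Tex14 moved in opposite directions in the 2 pairs of lines. Its log2 difference was -0.27 in the pair of mother 1046, where neither line was well above background, and 1.55 in the pair of mother 875, where the KO line was. With 1 line per genotype and mother, the difference between the pairs was not tested.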

How the results depend on the processing

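As reported, limma called 368 genes and transcripts lower and 37 higher over the array, 4 lower and 0 higher among the members, and 12 lower and 0 higher in the context lists. With the mother as a replicate block the counts of lower calls were 0, 0 and 0, and 0 genes were higher. The numbers pair the lines by mother per the labels. With a stricter filter, well above background on every one of the 4 arrays, 63 were lower and 1 higher over the array, 0 of the 4 members then tested and 3 context genes were lower, and the members' median was -0.41, since the 4 genes that fell leave the test. Under normexp with the 75th percentile 66 were higher over the array, 2 members were lower and their median was -0.62, and with quantiles 2 were lower with a median of -0.61. Both normexp settings add 50 to every signal, which shrinks the differences of dim probes. Higher calls over the array numbered 77 with an intensity trend and robust prior (2 in the context lists), 58 with median centring and 9 with no filter. Leaving out 1 line gave 0 to 845 lower and 0 to 178 higher over the array, 0 to 5 lower among the members and 0 to 12 lower in the context lists. The larger counts came without KO replicate 1, and a lone line is then assumed to vary like the others. Tuba3a turned to -0.067 under quantile scaling, -0.075 under normexp with quantiles, -0.065 with the deposited values, -0.59 as a mean of its probes and -1.26 for its dimmer probe, and the cause was not tested. The signs of the other 7 members held under every alternative that gave a value. The second probe of Tex14 entered none of these fits, and its mean difference was of the other sign (0.64), with KO 2 alone well above background. Median centring moved the median of all genes from 0.07 to 0.26. The arrays set the precision by their number, 2 per group, and a gene at background in the KO lines has only a bound.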
